A study of Drosophila melanogaster with 48 samples.

Results

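The comparison of midday with midnight on the control diet used 12 of the 48 RNA-seq libraries of abdominal fat body from Drosophila melanogaster. Libraries were taken by their labels. Zeitgeber times (ZT, hours after lights on) 4, 6 and 8 formed the midday window and ZT 16, 18 and 20 the midnight window. Each time had 2 libraries, which gave 6 libraries a window. All 12 came from mated females of the w1118 (iso31) strain. The females were about 8 days old, having entered the diet at about 3 days and stayed on it for 5 days. The control diet held 15% sucrose and yeast (15SY), and the flies lived at 25 °C under 12 h of light and 12 h of dark. Each library pooled the tissue of about 10 flies. That tissue was fat body still attached to the epidermis and its oenocytes, after the gut, ovaries and tubules had been cut off. The restricted diet, used only for a side comparison, held 5% sucrose and yeast and differed in nothing else that the labels give.

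The fly clock is a loop in which the activators CLK and CYC switch on per and tim, whose protein products return to the nucleus and silence their own genes. In a further loop CLK and CYC switch on vri and Pdp1, whose products respectively repress and activate Clk. The same loops run in peripheral tissues such as the fat body, the fly's organ of fat storage, sugar storage, yolk and immune secretion. The oenocytes attached to it build the hydrocarbons and very long chain lipids of the cuticle with elongases, fatty acyl-CoA reductases and the cytochrome P450 Cyp4g1.

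The libraries held 8428387 to 14490600 estimated counts. On the TPM scale (transcript abundance per length, which allows genes to be compared within a library) the defining markers of the labelled tissue were abundant in each of the 12 libraries. The yolk protein gene Yp1 lay between 20680 and 71390 TPM, and the oenocyte gene Cyp4g1 between 20850 and 52280 TPM. The lipoprotein gene apolpp lay between 678 and 1287 TPM. Transcripts of tissues that dissection should remove were also present, in unequal amounts. Over 8 gut enzymes the mean log2 CPM was 9.07 in ZT 6 replicate 1, 9.02 in ZT 16 replicate 2 and 6.08 in ZT 18 replicate 1, against medians of 1.21 at midday and 1.87 at midnight. Over 38 ovary markers it was 7.28 in ZT 4 replicate 1, against a midday median of 5.00. The eggshell genes of the ovary had a midday mean 2.47 log2 units above that of midnight (exact permutation within replicates, two-sided p = 0.03, adjusted over 11 marker scores 0.165). None of the 11 marker scores passed after adjustment. The 400 permutations can give no p below 0.005, so a score on its own could not have passed after adjustment. The adjusted test therefore could not decide whether a single tissue differed between windows. Replicate 1 libraries carried 4.98 to 7.05% of counts from mitochondrial genes and replicate 2 libraries 2.10 to 2.53%.

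**Figure D1:**
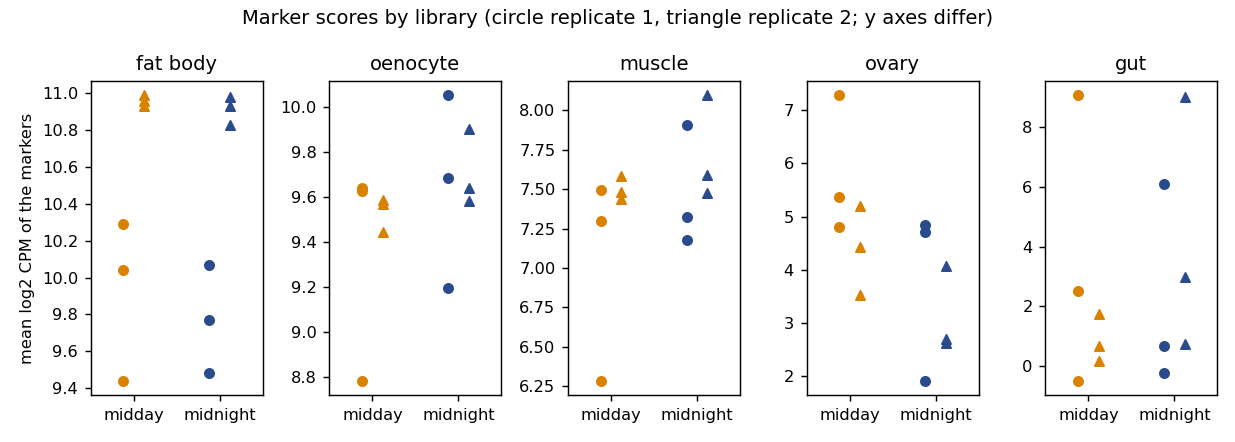
Mean log2 CPM (vertical axis, separate scale in each panel) of the markers of 5 tissues in the 6 midday and 6 midnight libraries, with circles for replicate 1 and triangles for replicate 2. The ovary panel shows ZT 4 replicate 1 at 7.28, and the gut panel shows libraries at 9.07, 9.02 and 6.08 above the rest.

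Few genes passed the test across the transcriptome. Of 8689 genes tested with edgeR's quasi-likelihood test, with the replicate number as a block, 2 passed an adjusted p of 0.05. The clock gene tim was higher at midnight, and CG17560, which encodes a predicted fatty acyl-CoA reductase, was higher at midday. The share called was 0.0115% in each direction. At an unadjusted p under 0.05 there were 282 genes with higher midday values, which is 3.25% of those tested, and 391 with higher midnight values, which is 4.5%. The range of the 6 midday libraries lay wholly above that of the midnight libraries in 8 genes, or 0.0921%, and wholly below it in 18 genes, or 0.207%. Of these 26 genes, 21 averaged at least 10 CPM (counts scaled to a common library size, after TMM normalisation). The number of calls differed between tools and fits. DESeq2 called 35 genes (0.403%) higher at midday and 40 (0.46%) higher at midnight. A fit that also held the 12 restricted diet libraries of the same times, and so estimated the spread from 24, called 9 (0.0982% of 9162) and 12 (0.131%). All 21 of those genes were also among the 75 of DESeq2, and tim and CG17560 were among them. Without ZT 4 replicate 1, the library rich in ovary transcripts, edgeR called 8 and 5 genes. Without ZT 4 replicate 2 edgeR called 0 and 0, with 520 genes at an unadjusted p under 0.05, and without the 4 libraries rich in ovary or gut transcripts 0 and 0, with 404.

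**Figure D2:**
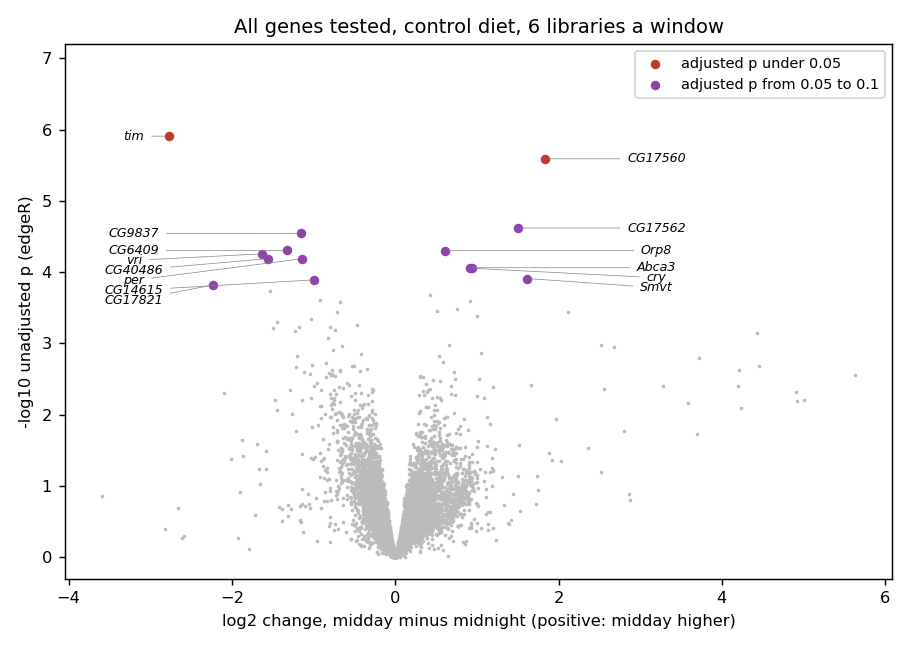
Log2 change, midday minus midnight (horizontal axis), against −log10 of the unadjusted p from edgeR (vertical axis) for 8689 genes. The called genes tim (-2.77) and CG17560 (1.83) stand above the rest, and the other 12 genes with an adjusted p under 0.1 are named in a second colour.

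Of the 8 core clock genes, 5 had windows that did not overlap, and tim passed the test. Over all genes the share with windows apart was 0.0921% with midday higher and 0.207% with midnight higher. The transcript of tim, whose protein partners PER and is broken down in light, had 34.9, 51.6 and 115 CPM as lowest, median and highest midday values and 283, 460 and 598 CPM at midnight. Every midnight library stood above every midday library. The log2 change, always given as midday minus midnight with its standard error, was -2.77 ± 0.31 (6 libraries a window), a 6.81-fold higher level at midnight (edgeR adjusted p = 0.0107). It was -2.79 within replicate 1 and -2.73 within replicate 2. Leaving out ZT 4 replicate 2 moved the adjusted p to 0.0502 at a change of -2.68. Leaving out the 4 libraries rich in ovary or gut transcripts gave -2.38 (adjusted p = 0.196), and adding these marker scores to the model gave -2.43 (adjusted p = 0.149). In bulk tissue, fewer cells of a type and less RNA per cell cannot be told apart.

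The 4 other night-phased clock genes had the same sign as tim without passing the test. The repressor gene vri had 20.6, 42.8 and 75.0 CPM at midday and 108, 133 and 199 CPM at midnight, so its windows did not overlap. Its log2 change was -1.63 ± 0.27 (edgeR adjusted p = 0.0627). Of 12 single omissions 2 called it, ZT 4 replicate 1 (0.028) and ZT 8 replicate 1 (0.0226), with adjusted p up to 0.212. It was called in the fit with both diets (0.00463), but not with the marker scores (0.688) or without the 4 libraries (0.314). The transcript of per, tim's partner in the loop, was the scarcest of the group, at 4.35, 8.59 and 15.6 CPM at midday against 10.8, 19.7 and 29.9 CPM at midnight. Its windows overlapped, and its log2 change was -1.15 ± 0.19 (edgeR adjusted p = 0.0627, and 0.0126 in the fit with both diets). Of 12 single omissions 0 called per, with edgeR adjusted p from 0.0582 to 0.212. It was not called with the marker scores (0.688) or without the 4 libraries (0.496). Pdp1, the activator of Clk, had 62.5, 97.7 and 129 CPM at midday and 143, 180 and 229 CPM at midnight. Its windows were apart, with a log2 change of -0.92 ± 0.18 (edgeR adjusted p = 0.119). The repressor gene cwo had the smallest change of the 5, -0.27 ± 0.09 (edgeR adjusted p = 0.539). Its windows were apart only narrowly, with a highest midday library of 65.0 CPM and a lowest midnight library of 65.4 CPM.

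**Figure D3:**
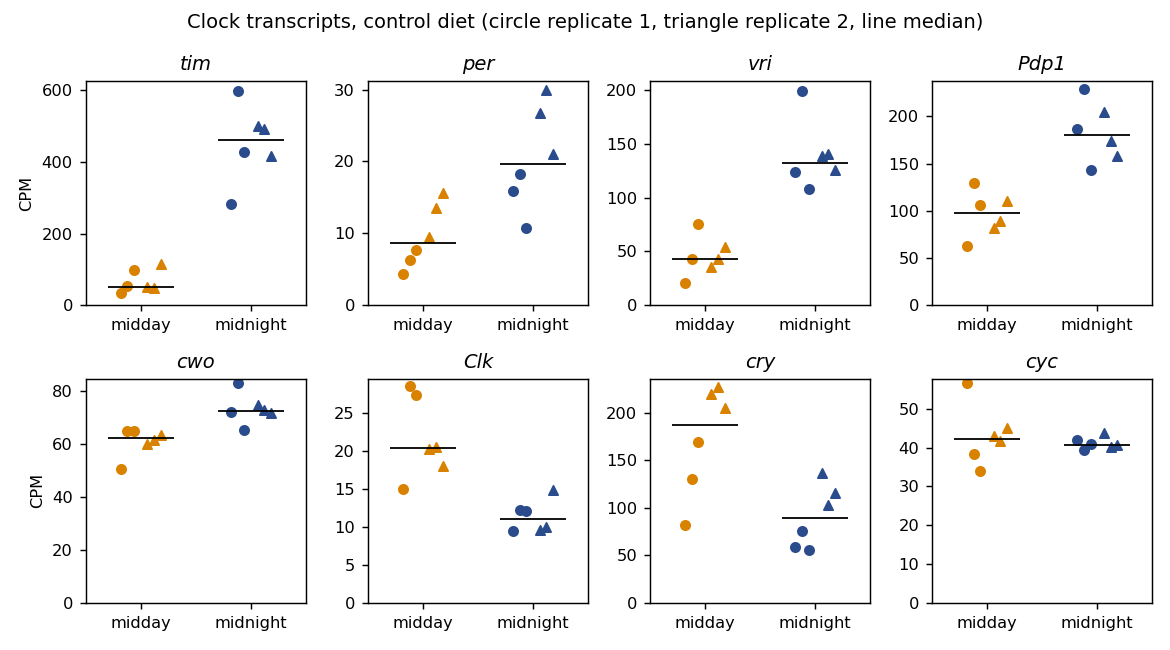
CPM (vertical axis, from 0, separate scale in each panel) of 8 clock transcripts in the midday and midnight libraries, with circles for replicate 1, triangles for replicate 2 and a line at the median. The windows do not overlap for tim, vri, Pdp1, cwo and Clk, and they overlap for per, cry and cyc.

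The genes of the opposite phase had higher midday values. Clk, which encodes the activator of the loop, had 15.0, 20.4 and 28.6 CPM at midday and 9.43, 11.1 and 14.8 CPM at midnight. The windows were apart, with the highest midnight library, ZT 20 replicate 2, just below the lowest midday library, ZT 4 replicate 1. The log2 change of Clk was 0.92 ± 0.18 (edgeR adjusted p = 0.119). Of 12 single omissions only that of ZT 4 replicate 1 called it (0.0323), with adjusted p up to 0.329. It was called in the fit with both diets (0.0359), but not with the marker scores (0.229) or without the 4 libraries (0.397). The blue light receptor gene cry had 82.4, 187 and 227 CPM at midday and 55.5, 89.7 and 137 CPM at midnight. Its windows overlapped over all 12 libraries, but within each replicate series every midday library stood above every midnight library. The log2 change of cry was 0.94 ± 0.16 (edgeR adjusted p = 0.0696). It was called without ZT 4 replicate 1 (0.0193), with the marker scores as covariates (0.0366, where 2 genes, or 0.023%, were called at midday) and in the fit with both diets (0.0146). No other of the 12 single omissions called it (adjusted p up to 0.217), nor did the fit without the 4 libraries (0.196). The transcript of cyc, CLK's partner, had a median of 42.3 CPM at midday and 40.8 CPM at midnight, with a log2 change of 0.07 ± 0.11 (edgeR adjusted p = 0.798). The sign of cyc turned without ZT 4 replicate 1 (-0.05) and with the marker scores (-0.10). Of 12 kinases, phosphatases and degradation factors that act on clock proteins, 0 had an unadjusted p under 0.05 and 0 were called by DESeq2. The widest of them were nmo, a kinase gene, at 0.31 and jet, a gene for an F-box protein needed for light resetting, at -0.26.

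The windows held the highest and the lowest time of day for each core clock gene except cyc, which was highest at ZT 4, lowest at ZT 24 and had a 1.27-fold range. Over the 12 control times, the mean of 2 libraries was lowest at ZT 4 and highest at ZT 18 for tim, per, vri, Pdp1 and cwo. The highest time exceeded the lowest 13.1-fold for tim, 6.15-fold for vri, 3.53-fold for per, 2.86-fold for Pdp1 and 1.44-fold for cwo. Clk was highest at ZT 6 and lowest at ZT 16, a 2.63-fold range, and cry was highest at ZT 8 and lowest at ZT 20, a 2.19-fold range. The reductase gene CG17560 peaked at ZT 6 and was lowest at ZT 14, before the midnight window began, a 5.43-fold range. These ranges come from the extremes of 12 times and carry no test.

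**Figure D4:**
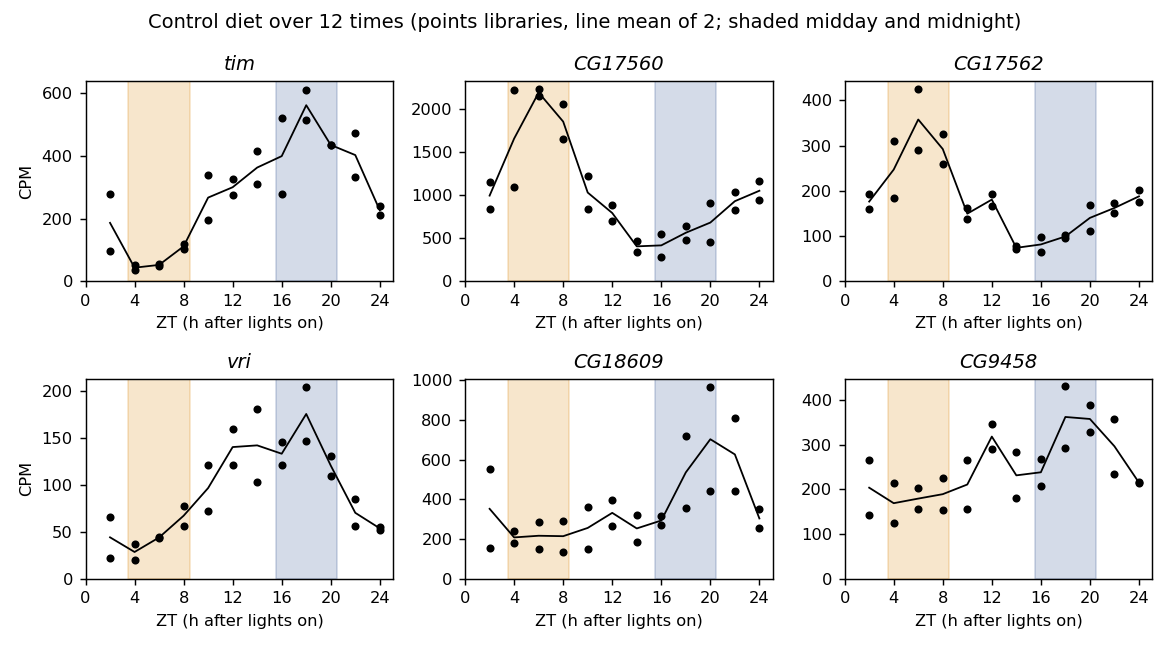
CPM (vertical axis, from 0) over the 12 control diet times (horizontal axis, ZT in hours) for 6 genes, with each library as a point, the mean of 2 as a line and the midday and midnight windows shaded. The 2 reductase genes peak at ZT 6 inside the midday window, tim, vri and CG9458 peak at ZT 18, and CG18609 peaks at ZT 20.

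Reductases and elongases, which oenocytes use for cuticular lipids, held 1 of the 2 called genes. Fatty acyl-CoA reductases turn long acyl chains into alcohols or aldehydes. CG17560 had 1108, 2032 and 2180 CPM at midday and 290, 497 and 868 CPM at midnight. Every midday library stood above every midnight library. The log2 change was 1.83 ± 0.22, or 3.56-fold (edgeR adjusted p = 0.0112). Replicate 1 alone gave 2.14 and replicate 2 alone gave 1.54. Its mean level was 1327 TPM at midday and 353 TPM at midnight, so it was an abundant transcript in both windows. The change ranged from 1.71 to 1.97 when each library was left out. The call was lost without ZT 4 replicate 2 (adjusted p = 0.0502), ZT 16 replicate 2 (0.0558), ZT 18 replicate 1 (0.0826), ZT 18 replicate 2 (0.055) or ZT 20 replicate 1 (0.0658). Without the 4 libraries rich in ovary or gut transcripts the change was 1.77 (adjusted p = 0.196).

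CG17562, another predicted reductase gene, had 187, 291 and 416 CPM at midday and 66.7, 95.7 and 163 CPM at midnight. Its windows were apart, with a log2 change of 1.501 ± 0.23 (edgeR adjusted p = 0.0621). Of 12 single omissions 2 called it, ZT 4 replicate 1 (0.0194) and ZT 20 replicate 2 (0.0179), with adjusted p up to 0.19. It was called in the fit with both diets (7.94e-04), but not with the marker scores (0.149) or without the 4 libraries (0.314). CG10097 had 741, 1203 and 1827 CPM at midday and 233, 559 and 927 CPM at midnight, overlapping windows and a log2 change of 1.08 ± 0.32 (edgeR adjusted p = 0.434). CG14893 was scarce, with 1.36, 2.39 and 4.26 CPM at midday and 0.0932, 0.198 and 1.30 CPM at midnight. Its windows were apart, at 2.52 ± 0.59 (edgeR adjusted p = 0.257). In all, 15 of 17 listed reductases were tested, 4 had an unadjusted p under 0.05 with higher midday values, against 3.25% of all genes, and 0 with higher midnight values. The median log2 change of the 15 was 0.08, against 0.03 for all genes. The other 11 spanned -0.29 for CG8306 to 0.91 for Sgp, whose libraries overlapped widely.

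Elongases lengthen fatty acids by adding carbons to the acyl chain. Of 16 tested among 20 listed, 7 had an unadjusted p under 0.05, each with higher midnight values, against 4.5% of all genes, and 0 in the other direction. The median log2 change of the 16 was -0.27, with 11 negative, and it turned to 0.05 with the marker scores in the model. None of the 16 passed the adjusted test. CG17821 had 0.914, 1.66 and 1.97 CPM at midday and 3.21, 4.58 and 22.3 CPM at midnight. This scarce transcript had windows apart and a log2 change of -2.24 ± 0.41 (edgeR adjusted p = 0.094, and 0.0282 in the fit with both diets). Of 12 single omissions only that of ZT 16 replicate 1 called it (0.029), with adjusted p up to 0.279. It was not called with the marker scores (0.779) or without the 4 libraries (0.726). CG18609 had 132, 206 and 282 CPM at midday and 277, 381 and 950 CPM at midnight, an overlap of a few CPM. Its log2 change was -1.23 ± 0.27 (edgeR adjusted p = 0.184). CG9458 had 127, 175 and 217 CPM at midday and 213, 297 and 423 CPM at midnight, with a log2 change of -0.83 ± 0.19 (edgeR adjusted p = 0.215). The other 4 were CG9459 (-0.77), CG8534 (-0.59), CG31523 (-0.46) and CG16904 (-0.43), all with overlapping windows. Of these 7 genes, CG17821, CG18609, CG9458 and CG9459 were called by DESeq2, which called 0.46% of all genes higher at midnight. CG16904 and CG31523 were abundant at both times, with mean levels of 1697 and 1019 TPM at midday and 2158 and 1324 TPM at midnight. The oenocyte marker score was 0.23 log2 units lower at midday than at midnight (exact permutation p = 0.23, adjusted 0.361), and ZT 4 replicate 1 had the lowest score of the 12 libraries. The difference was -0.10 without that library and -0.33 without ZT 16 replicate 1. Without the 4 libraries the changes of the 7 elongases ran from -2.22 for CG17821 to -0.32 for CG16904. With the ovary and gut marker scores they ran from -2.11 for CG17821 to -0.07 for CG31523, with -0.10 for CG16904 and -0.23 for CG8534. The part of oenocyte content in these values was not tested.

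**Figure D5:**
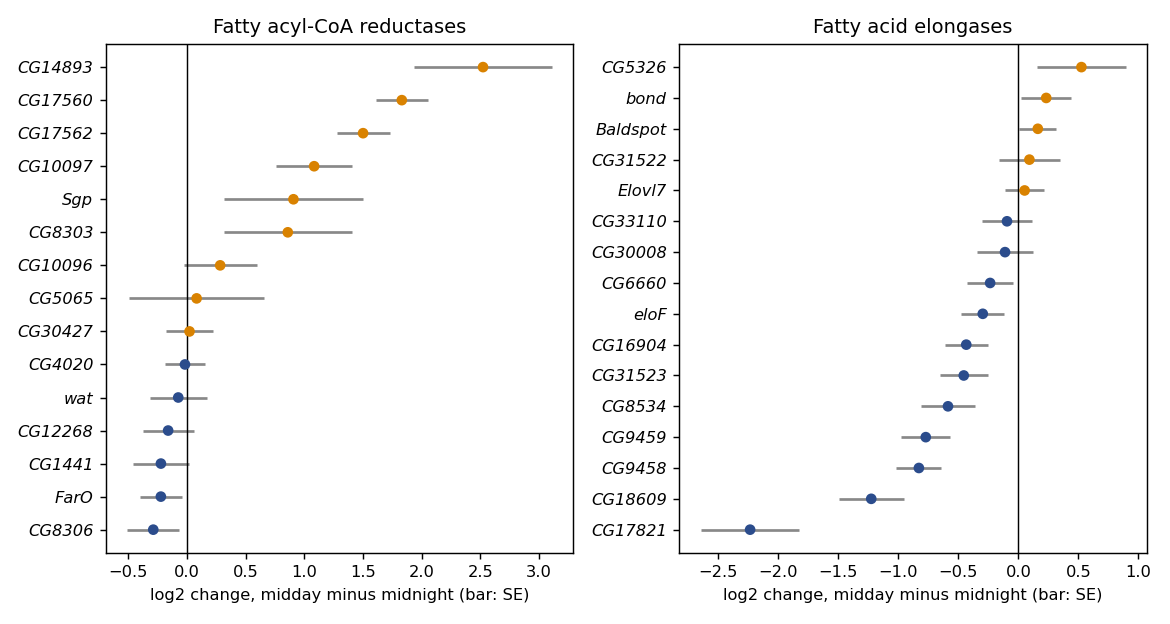
Log2 change, midday minus midnight (horizontal axis, bars are the standard error), of each tested fatty acyl-CoA reductase gene (left) and elongase gene (right), with 6 libraries a window. CG14893 (2.52), CG17560 (1.83), CG17562 (1.501) and CG10097 (1.08) stand to the right among the reductases, and CG17821 (-2.24) and CG18609 (-1.23) stand furthest left among the elongases.

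Other genes lay between adjusted p values of 0.05 and 0.1 in edgeR, and they were chosen after their values were seen. Of 14 genes with an adjusted p under 0.1, 13 were called in the fit with both diets. Smvt, which encodes a sodium-dependent multivitamin transporter, was the exception, at 0.452 there. Its log2 change on the control diet was 1.62 ± 0.29 (edgeR adjusted p = 0.0857), with overlapping windows of 82.7 to 192 CPM at midday and 18.7 to 86.3 CPM at midnight. Over the control times Smvt was highest at ZT 6 (184 CPM), with 180 CPM at ZT 22. Orp8, for a lipid transfer protein of the oxysterol-binding family, had 80.2, 96.3 and 114 CPM at midday and 58.0, 62.6 and 70.1 CPM at midnight, with windows apart and a tight spread. The log2 change of Orp8 was 0.61 ± 0.10 (edgeR adjusted p = 0.0627), and it was called without ZT 4 replicate 1 (0.0282). Abca3, for an ATP-binding cassette transporter, had 65.2, 77.3 and 103 CPM at midday and 31.3, 42.8 and 52.6 CPM at midnight, again apart. For Abca3 the log2 change was 0.91 ± 0.16 (edgeR adjusted p = 0.0696), and it was called without ZT 4 replicate 1 (0.036).

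On the midnight side, CG6409 had 135, 180 and 244 CPM at midday and 267, 484 and 731 CPM at midnight, with windows apart. The change of CG6409 was -1.33 ± 0.22 (edgeR adjusted p = 0.0627), and it was called without ZT 16 replicate 1 (0.0495) or ZT 20 replicate 2 (0.0394). CG40486 had 5.01, 21.9 and 30.0 CPM at midday and 30.3, 65.9 and 81.5 CPM at midnight, apart by a fraction of a CPM. Its log2 change was -1.56 ± 0.26 (edgeR adjusted p = 0.0627, and 0.00822 without ZT 4 replicate 1). CG14615 had 106, 157 and 175 CPM at midday and 181, 317 and 370 CPM at midnight, with windows apart and a change of -0.99 ± 0.18 (edgeR adjusted p = 0.0857, and 0.029 without ZT 16 replicate 1). CG9837 had overlapping windows and a change of -1.15 ± 0.18 (edgeR adjusted p = 0.0621). It was called without ZT 4 replicate 1 (0.036), ZT 8 replicate 1 (0.0226) or ZT 16 replicate 1 (0.029). For the genes from Smvt to CG9837, at most 3 of 12 single omissions brought a call. The highest edgeR adjusted p over omissions lay between 0.191 (CG9837) and 0.269 (CG14615). None was called with the marker scores (0.149 for Orp8 and Abca3 to 0.997 for CG14615). Nor was any called without the 4 libraries rich in ovary or gut transcripts (0.196 for CG40486 to 0.554 for CG14615).

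Among genes of sugar storage and central metabolism none passed the adjusted test, and the most separated ones had positive changes. UGP, whose product makes the UDP-glucose used for glycogen and trehalose, had 1250, 2343 and 2869 CPM at midday and 1014, 1527 and 1952 CPM at midnight. The windows overlapped, and the log2 change was 0.54 ± 0.13 (edgeR adjusted p = 0.304). Single omissions gave adjusted p from 0.0326 without ZT 4 replicate 1, the only one to call it, up to 0.739. Glys, the glycogen synthase gene, had 300.0, 467 and 749 CPM at midday and 290, 377 and 456 CPM at midnight, with a log2 change of 0.36 ± 0.12 (edgeR adjusted p = 0.559). These were the 2 of 10 trehalose and glycogen genes with an unadjusted p under 0.05, where 3.25% of all genes had such a p with higher midday values. The same share applies to the midday counts that follow. In glycolysis 2 of 15 genes were past that threshold, Pgi (0.51 ± 0.15) and Gapdh2 (0.30 ± 0.11). In amino acid and one-carbon metabolism 4 of 25 were past it, all with higher midday values. They were the aspartate aminotransferase genes Got2 (0.68 ± 0.20) and Got1 (0.46 ± 0.13), AhcyL1 (0.34 ± 0.09) and Dbct (0.29 ± 0.08). In lipid synthesis, 2 of 21 genes had higher midday values, ATPCL, which makes cytosolic acetyl-CoA (0.47 ± 0.16), and Zw, the glucose-6-phosphate dehydrogenase gene that supplies NADPH (0.59 ± 0.20). SCAP, the escort of the sterol-sensing transcription factor, had a higher midnight value (-0.35 ± 0.16), where 4.5% of all genes were past that threshold. Of 21 genes of fat breakdown, 0 were past an unadjusted p of 0.05 or called by DESeq2, and their log2 changes spanned -0.29 to 0.28.

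The fat body also secretes storage proteins and hormones. Lsp2, a larval serum protein that stores amino acids, varied 47.6-fold between the means of the 12 times and was highest at ZT 10. The 2 libraries of some times differed widely, with 44.5 and 437 CPM at ZT 4 and 1.29 and 212 CPM at ZT 24. Lsp2 had 12.5, 172 and 423 CPM at midday and 3.77, 16.6 and 160 CPM at midnight, and the windows overlapped. Its log2 change was 2.12 ± 0.43 (edgeR adjusted p = 0.137), and DESeq2 called it. The edgeR adjusted p was 0.382 in the fit with both diets, 0.812 with no block and 0.997 with the marker scores. The related Lsp1beta had a change of 0.79 ± 0.29 (edgeR adjusted p = 0.61). The yolk protein genes Yp1, Yp2 and Yp3 had changes of -0.13 ± 0.18, -0.18 ± 0.17 and -0.07 ± 0.18, with overlapping windows. Of 12 other secreted signals only Ilp6, the fat body insulin-like peptide gene, had an unadjusted p under 0.05. Of all genes 4.5% had such a p with higher midnight values and 3.25% with higher midday values. It had 11.5, 32.8 and 36.7 CPM at midday and 28.7, 56.4 and 76.2 CPM at midnight, and a log2 change of -0.91 ± 0.28 (edgeR adjusted p = 0.47). In insulin and TOR signalling the receptor gene InR (0.36 ± 0.14) had a higher midday value. The genes chico (-0.39 ± 0.17), Rheb (-0.40 ± 0.16) and REPTOR-BP (-0.68 ± 0.23) had higher midnight values. These 4 were those of 22 past an unadjusted p of 0.05, against 3.25% of all genes at midday and 4.5% at midnight.

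Immune effector genes had mostly negative changes. Antimicrobial peptides and Bomanins are short secreted peptides that fat body cells make when Toll or Imd signalling is active. Of 18 tested, 8 had an unadjusted p under 0.05, all with higher midnight values, against 4.5% of all genes, and 0 passed the adjusted test. The median log2 change was -0.52, and 13 of the 18 were negative. That median was -0.91 without the 4 libraries rich in ovary or gut transcripts and -0.64 with the marker scores. It was -0.40 within replicate 1, -1.20 within replicate 2 and -0.02 on the restricted diet. BomS2 had 54.2, 84.1 and 114 CPM at midday and 79.1, 181 and 309 CPM at midnight, with a log2 change of -1.05 ± 0.28 (edgeR adjusted p = 0.371, called by DESeq2 at 0.0312). The others were BomS1 (-0.86), BomS3 (-0.78), BomS4 (-0.49), BomS5 (-1.22), BomT2 (-0.72), BomT3 (-0.42) and Drs (-1.58), the Toll-driven antifungal peptide gene. Drs spread widely within windows, from 17.4 to 206 CPM at midday and from 33.9 to 428 CPM at midnight. All 8 overlapped between windows. Each of the 8 had a smaller change without the 4 libraries, from -1.20 for Drs to -0.29 for BomS4. The same held with the marker scores, from -1.16 for Drs to -0.13 for BomT3. The Imd-driven genes DptA, DptB and AttC had changes of 0.47 ± 1.59, 0.30 ± 1.32 and 0.68 ± 1.00. Of 24 genes of the Toll and Imd pathways themselves, 0 had an unadjusted p under 0.05 or were called by DESeq2.

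Hemocyte markers had mostly negative changes. Of 13 hemocyte markers 12 had negative changes and 5 an unadjusted p under 0.05, against 4.5% of all genes. These were the prophenoloxidase genes PPO1 (-0.39 ± 0.17) and PPO2 (-0.50 ± 0.16), the peroxidasin gene Pxn (-0.46 ± 0.19), and the type IV collagen genes Col4a1 (-0.54 ± 0.20) and vkg (-0.54 ± 0.22), which fat body cells also express. The summed level of the 13 markers was 791 to 2993 CPM at midday and 1089 to 4926 CPM at midnight. The marker score was 0.31 log2 units lower at midday (exact permutation p = 0.16, adjusted 0.361). Without ZT 4 replicate 1 the difference was -0.12 and without ZT 16 replicate 1 it was -0.52. The median change of the 13 markers, -0.39, was -0.02 with the ovary and gut scores in the model. Markers of other tissues had negative changes too, in 20 of 20 muscle genes (median -0.38), 9 of 10 oenocyte genes (-0.25) and 9 of 11 epidermis genes (-0.28). Of all genes tested 3969 were negative and 4720 positive. With the marker scores these medians were 0.11 for muscle, 0.10 for oenocyte and -0.05 for epidermis genes. On the restricted diet they were 0.16, -0.03 and 0.06. The part of hemocyte content in the immune values was not tested.

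Of the detoxification genes, no glutathione S-transferase, UDP-glycosyltransferase or cytochrome P450 gene passed the adjusted test. Glutathione S-transferases join glutathione to foreign compounds and lipid oxidation products. Of 26 tested, 4 had an unadjusted p under 0.05, all with higher midday values and all of the E cluster, against 3.25% of all genes, and 0 had higher midnight values. GstE3 had 31.8, 55.2 and 68.3 CPM at midday and 12.4, 28.9 and 65.6 CPM at midnight, with a log2 change of 0.77 ± 0.27 (edgeR adjusted p = 0.584). GstE5 (1.00 ± 0.30) was scarce, with windows apart at 1.29 to 3.32 CPM and 0.523 to 1.26 CPM. GstE7 (0.94 ± 0.39) and GstE8 (0.70 ± 0.28) overlapped between windows. These neighbouring genes are close in sequence, and estimated counts can be divided between such copies. UDP-glycosyltransferases add sugars to small molecules. Among 19 tested, Ugt36D1, with 58.4, 92.5 and 119 CPM at midday and 27.3, 48.0 and 62.8 CPM at midnight, had a log2 change of 1.00 ± 0.21 (edgeR adjusted p = 0.151, and 0.0359 in the fit with both diets). Ugt36D1 was not called with the marker scores (edgeR adjusted p = 0.149) or without the 4 libraries (0.477). Ugt35B1 (1.03 ± 0.28) and Ugt49C1 (0.41 ± 0.16) also had higher midday values and Ugt36A1 (-0.71 ± 0.24) a higher midnight value. These were the 3 and 1 of 19 past an unadjusted p of 0.05, against 3.25% and 4.5% of all genes. The changes of the 19 spanned -0.71 to 1.31, with 16 positive. Among 68 cytochrome P450 genes 6 were past an unadjusted p of 0.05 with higher midnight values and 2 with higher midday values, against 4.5% and 3.25% of all genes. Their changes were positive in 30 and negative in 38, against 37 and 31 on the log2(TPM + 1) scale. The P450 median of -0.07 turned to 0.18 with the marker scores and to 0.08 without the 4 libraries. Cyp6a20 (-0.81 ± 0.21) and Cyp304a1 (-1.21 ± 0.31) were the 2 of them called by DESeq2, against 0.46% of all genes higher at midnight.

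Genes of protein turnover had small negative changes. Of 33 proteasome subunit genes, all 33 had a negative log2 change, between -0.32 and -0.03 with a median of -0.19, and 12 had an unadjusted p under 0.05 against 4.5% of all genes. None passed the adjusted test of edgeR, and DESeq2 called 1, against 0.46% of all genes higher at midnight. Prosalpha5, a core particle subunit gene, had 129, 158 and 165 CPM at midday and 165, 182 and 201 CPM at midnight. The windows touched at 165 CPM, and the log2 change was -0.29 ± 0.09 (edgeR adjusted p = 0.441). Rpn10, a ubiquitin receptor gene of the regulatory particle, had -0.26 ± 0.09 (edgeR adjusted p = 0.559). Proteasome genes are known to be regulated together, so their values are not independent of each other. Of 19 autophagy genes 18 were negative and 6 had an unadjusted p under 0.05 with higher midnight values, against 4.5% of all genes. They included Atg101 (-0.78 ± 0.24) and Atg17 (-0.44 ± 0.17) of the initiation complex and Atg8a (-0.39 ± 0.16), whose product coats the autophagosome. Without the 4 libraries rich in ovary or gut transcripts the median was -0.11 for the proteasome and -0.20 for autophagy, and with the marker scores as covariates it was -0.11 and -0.06. On the log2(TPM + 1) scale, where the median of all genes was 0.11, 29 of the 33 proteasome genes and 13 of the 19 autophagy genes were negative.

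Translation and respiration genes had small changes. Of 77 cytoplasmic ribosomal protein genes 0 had an unadjusted p under 0.05 and 0 were called by DESeq2, with a median of -0.07. Of 65 nuclear genes of oxidative phosphorylation all were negative, 1 had an unadjusted p under 0.05 against 4.5% of all genes, and the median was -0.14. Ribosome biogenesis had 19 positive of 22 genes, 0 with an unadjusted p under 0.05 and a median of 0.18. Those medians were 0.09, 0.02 and -0.02 when ovary and gut scores entered the model, so that the sign turned for the ribosomal, respiratory and biogenesis genes. On the log2(TPM + 1) scale the ribosomal median was 0.01, and 54 of the 65 respiratory genes were negative.

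Genes of the eggshell, which follicle cells of the ovary make, had wide log2 changes. All 18 eggshell genes tested had higher midday values, 8 with an unadjusted p under 0.05 against 3.25% of all genes, and the median was 2.26. That median was 1.45 without the 4 libraries, 0.58 with the marker scores in the model and 0.42 on the restricted diet. The ovary marker score is built in part from these same eggshell genes, so a smaller median with it was built in. The 4 libraries were picked for ovary or gut transcripts, so the value without them is not independent of these genes either. Cp36, a chorion protein gene, had 2.75, 128 and 803 CPM at midday and 0.326, 6.81 and 56.6 CPM at midnight, with a log2 change of 4.90 ± 1.42 (edgeR adjusted p = 0.422). The change was 2.94 without ZT 8 replicate 2 and 5.802 without ZT 20 replicate 1. The windows overlapped, the lowest midday library being below the midnight median. The yellow-g gene had 0.826, 4.70 and 44.9 CPM at midday and 0.419, 0.780 and 2.05 CPM at midnight (3.72 ± 0.92, edgeR adjusted p = 0.312). Germline markers had a median of 0.79, with 20 of 20 positive and 1 past an unadjusted p of 0.05, against 3.25% of all genes. Ovary tissue left after dissection was not measured in any other way. The summed level of 18 eggshell genes was 150 to 6135 CPM at midday and 86.0 to 1390 CPM at midnight. Gut enzymes had a median of -1.85 over 8 genes with 0 past an unadjusted p of 0.05. The sign of that median differed between replicates, at 1.63 within replicate 1 and -6.99 within replicate 2. The sum of the gut enzymes ranged from 7.94 to 5648 CPM at midday and from 10.1 to 4574 CPM at midnight.

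The same windows on the restricted diet gave 13 genes higher at midday, or 0.142% of 9162, and 10 higher at midnight, or 0.109%, in the fit with both diets. The difference between diets in the midday to midnight change was called for 0 genes by edgeR and for 0 by DESeq2. In edgeR 154 genes, or 1.68%, had an unadjusted p under 0.05. For tim the restricted diet change was -2.87 ± 0.31, and the difference between diets, restricted minus control, was -0.11 (95% interval -0.96 to 0.74, edgeR adjusted p = 0.993). For CG17560 it was 1.97 ± 0.18, with a difference of 0.14 (-0.37 to 0.64). For vri it was -1.43 ± 0.26, with a difference of 0.19 (-0.56 to 0.94), and for Clk 1.33 ± 0.19, with a difference of 0.40 (-0.15 to 0.95). For Pdp1 it was -0.51 ± 0.22, with a difference of 0.40 (-0.26 to 1.06).

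Among the immune genes, Drs, BomS3 and BomT3 had an unadjusted p under 0.05 for the difference between diets, and none passed after adjustment. The restricted diet change of Drs was 1.70 ± 0.68, against -1.57 on the control diet in the same fit, a difference of 3.28 (unadjusted p = 0.00246 and adjusted p = 0.993 in edgeR). For BomS3 the difference was 0.68 (unadjusted p = 0.0414 in edgeR's test, adjusted 0.993) and for BomT3 0.50 (0.0464, adjusted 0.993). The 3 genes with the smallest p and a mean of at least 10 CPM over 24 libraries were Fim, the gene of the actin-bundling protein fimbrin, CG6495 and Pdf. The difference was -0.42 ± 0.10 for Fim (unadjusted p = 5.23e-04) and -0.68 ± 0.18 for CG6495 (9.58e-04) in edgeR, each with an adjusted p of 0.993. CG6495 had 12.1, 19.1 and 26.2 CPM at midday and 22.2, 27.2 and 34.5 CPM at midnight on the restricted diet, against 9.77, 17.7 and 23.4 and 10.0, 14.3 and 26.02 CPM on the control diet. Pdf, the gene of a clock neuron peptide, was at or under 1.83 CPM in the median of each window, with a highest library of 120 CPM at midnight on the control diet and 98.4 CPM at midday on the restricted diet. Single libraries thus carried its mean past 10 CPM. It was too scarce on the control diet to enter the test between windows.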

How the data were processed

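RNA from 48 fat body libraries was measured by RNA-seq, and 12 entered this comparison. Estimated counts and TPM values were deposited by the authors in tables of 14205 gene rows, of which 14051 had a symbol. Transcripts were quantified with kallisto 0.44.0 after FastQC, per the submitters' processing notes. The annotation, the genome build, the step from transcripts to genes and the strand setting were not given in the sources used here. Therefore coordinates are left out, and overlapping genes could not be separated by strand. Estimated counts as deposited were whole, within 0.01, in 88.2% of cells, and all were rounded.

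Genes were kept with filterByExpr (minimum count 10) over the windows, scaled with TMM and tested with edgeR 4.0.16 (quasi-likelihood, Benjamini-Hochberg over 8689 genes, threshold 0.05) in R 4.3.3, with window and replicate as terms. The difference between diets was an interaction over 24 libraries and 9162 genes. CPM values use TMM library sizes, and log2 CPM a prior count of 2. Total estimated counts were 8428387 to 14490600 per library, and genes of a few CPM rest on few counts. No library pair agreed within sampling noise. The script was tested on simulated counts.

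The members, the 46 gene lists and the tests were chosen with earlier results of these data known. Genes to name were, by rule, the 15 highest and 15 lowest called changes of at least 10 CPM, all core clock genes, up to 4 called members of each list, and up to 6 genes of the difference between diets, or the 3 smallest p where none passed. All other genes were named after their values were seen. Counts at an unadjusted p, counts of windows apart, the joint fit of both diets and the fit without 4 libraries were added after seeing the data. Alternatives were DESeq2 1.42.0, its size factors, no filter, no block, time as a factor, limma 3.58.1 on log2(TPM + 1) or log2(TPM + 0.1), rows of ribosomal RNA and mitochondrial genes left out, marker scores as covariates, each replicate alone, ZT 6 against ZT 18, a minimum fold of 1.5, and each library left out. Figures were drawn with Python 3.11.15. The list of spermatheca markers had 0 tested members.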

Additional observations from a re-analysis of the deposited data

Results flagged for a closer look

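In 14 of 144 sets of 6 libraries examined, the gap between the lowest or highest library and its nearest neighbour took more of the range than the Dixon critical value of 0.625. Chance flags about 1 set in 20. In 9 of the 14 the library was ZT 4 replicate 1. At midday this library was low for cwo (gap 0.692 of the range), CG8534 (0.857), CG16904 (0.651), CG40486 (0.727) and Ilp6 (0.707). It was also low for the oenocyte score (0.772), the epidermis score (0.73) and the muscle score (0.779), and high for the germline score (0.796, at 7.03 against a median of 5.25 log2 CPM). ZT 16 replicate 1 was low at midnight for CG8534 (0.701), BomT3 (0.667) and Atg17 (0.665). ZT 18 replicate 1 was high at midnight for the neuron score (0.818). ZT 6 replicate 1 was high at midday for the gut score (0.685, at 9.07 against a median of 1.21 log2 CPM).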

How the results depend on the processing

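The main counts were 1 gene higher at midday and 1 higher at midnight. They were 35 and 40 with DESeq2, 10 and 7 with limma on log2(TPM + 1), 7 and 7 with a pseudocount of 0.1, 6 and 5 over all genes with a TPM, 2 and 0 with the marker scores (286 genes at an unadjusted p under 0.05), 1 and 3 with time as a factor, and 2 and 1 with no filter. Replicate 1 alone gave 0 and 0 (105 genes at an unadjusted p under 0.05) and replicate 2 alone 2 and 8. ZT 6 against ZT 18 gave 0 and 1 (862). Leaving out each library in turn gave 0 to 8 genes at midday and 0 to 5 at midnight, with 377 to 1449 at an unadjusted p under 0.05. Added after seeing the data, the joint fit gave 9 and 12, and the fit without 4 libraries 0 and 0 (404). Size factors, the rows left out and the minimum fold gave 1 and 1. Both called genes, at 6.81-fold and 3.56-fold, already exceeded the minimum fold of 1.5, so that cut could remove neither. The cause of these differences was not tested.

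With no replicate block the counts were 2 and 1. The difference between libraries of replicate 1 and 2 correlated between times from -0.105 to 0.692 (median 0.376, 15 pairs). The correlations thus did not show at each pair of times that the numbers pair the libraries. The mitochondrial share did separate the numbers, with 4.98 to 7.05% in replicate 1 and 2.10 to 2.53% in replicate 2. What libraries of a number have in common was not given. The block changed no call of tim or CG17560. Lists with a called member numbered 2, with 0 for replicate 1 alone. The difference between diets was called for 0 genes under each edgeR and DESeq2 alternative run. Of the 11 marker scores 0 passed in each. With all 12 libraries a single score could not pass after adjustment, and fewer libraries allow fewer permutations. The result for the scores was thus largely fixed in advance.

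The change of cyc was -0.098 with the marker scores, -0.0377 without the 4 libraries rich in ovary or gut transcripts, and -0.0472 without ZT 4 replicate 1 (highest over single omissions 0.13). The score difference ranged over single omissions from -0.0705 to 0.302 for fat body, -0.00899 to 0.276 for neuron and -2.28 to 0.235 for gut markers. Of the values of single genes and scores, 1670 kept direction and side of the threshold, 101 passed it in addition, 14 lost it and 9 turned.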
